A study of Mus musculus with 6 samples.

Results

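A group of 10 genes linked to the cellular response to low oxygen, called hypoxia-inducible genes here, was followed across macrophages from injured mouse muscle: Hif1a, Egln1, Egln3, Bnip3, Ankrd37, Hilpda, Ndrg1, Adm, P4ha1 and Selenbp1. They were taken by gene name from the deposited table, which found all 10 of them among 53774 named lines. The cells were sorted as CD45-positive and F4/80-positive from skeletal muscle on day 3 after an injection of barium chloride, a salt that destroys myofibres and starts their regeneration. There were 3 libraries from mice given tamoxifen and 3 from mice given oil. Both groups carried Cx3cr1-CreER, a tamoxifen-inducible recombinase under the promoter of a gene of monocytes and macrophages, and floxed alleles of Manf on both chromosomes (Manf fl/fl). Tamoxifen was given to delete Manf, whose product is secreted and resides in part in the endoplasmic reticulum (ER). Oil-treated mice had the same genotype, so a direct effect of tamoxifen and an effect of the deletion cannot be told apart. The sources used here give no age, no sex and no mouse for a library, so the p-values reflect the variation among these samples alone, part of which may be technical.

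Hypoxia-inducible factor (HIF) is a transcription factor of an oxygen-regulated alpha subunit and a stable partner. In the presence of oxygen, the EGLN prolyl hydroxylases mark the alpha subunit, the VHL ubiquitin ligase binds it and the proteasome destroys it; in low oxygen it persists and switches on genes of glycolysis, iron and lipid handling, mitophagy and blood vessel growth. The factor is therefore controlled largely at the level of its protein, which a transcript level does not show. In macrophages it is also known to act in inflammation without low oxygen. No sample of this study was held at a defined oxygen level. The name of the group is therefore a label, and whether low oxygen induces each member was not measured here.

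The deleted gene did not follow the labels. Manf was at 18.1, 42.5 and 38.0 FPKM (fragments per kilobase of gene, scaled to the fragments of the library) in libraries that bear the labels tamoxifen 1, 2 and 3, against 29.5, 33.05 and 31.4 FPKM in oil 1, 2 and 3. Only tamoxifen 1 lay below the oil libraries, and a value for the entire gene includes exons that the deletion may leave in place. The libraries are therefore named by their labels. The sort genes Ptprc and Adgre1 were present in every library, at 34.4 FPKM or more and 304 FPKM or more. Ptprc was lower in every tamoxifen library (46.9, 35.7 and 34.4 FPKM) than in oil (54.5, 47.4 and 49.998 FPKM). Of 9 macrophage and sort genes tested 7 had a fold change below 0, as had 5054 of all 10920 genes tested. In 4 of the 9 all tamoxifen libraries were below all oil libraries, beside 13.8% of all genes tested. In 1, Fcgr1, they were all above, beside 16.2%. The summed level of these genes was 9111 to 10158 FPKM with tamoxifen and 11278 to 12999 FPKM in oil, and their part in the other results was not tested. Lyz2 alone made up most of that sum, at 6774 to 7399 FPKM with tamoxifen and 8548 to 10193 FPKM in oil. Cx3cr1 was at 31.3, 9.82 and 24.6 FPKM with tamoxifen and at 51.7, 42.7 and 51.0 FPKM in oil. Total fragments, recovered from the values, ran between 18120333 and 23478590 per library with tamoxifen and between 18553400 and 25544666 in oil. Across the 10920 genes whose mean reached 1 FPKM, limma-trend on log2(FPKM + 1) with Benjamini-Hochberg adjustment called 0.0% of genes higher and 0.0% lower at an adjusted p under 0.05, with 0.0805 as the lowest adjusted p. Before adjustment, 24.9% of genes had a p under 0.05. Limma-voom on the recovered fragments also called 0 genes. Without tamoxifen 1 the same limma-trend fit called 17.4% of genes higher and 14.5% lower. That fit leaves out the only tamoxifen library with Manf below oil. In it Manf itself was called higher, with a log2 fold change of 0.35 (limma-trend adjusted p = 0.0214).

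The hypoxia-inducible genes pointed in different directions. Of the 10 members, 8 reached the mean of 1 FPKM needed for the test, and Egln3 and Adm did not. None of the 8 was called in the fit with all libraries, in which the background was 0.0% in either direction. Before adjustment 2 members were higher at a p under 0.05, where 13.2% of all genes were, and 1 was lower, where 11.7% were. Hif1a and P4ha1 were higher in every library labelled tamoxifen than in any oil library, where 16.2% of all genes tested were, and Selenbp1 was lower in every one, where 13.8% were. The groups of the other 5 tested members overlapped. These counts, 2 of 8 and 1 of 8, are near the background. Of the 8 fold changes, 5 lay above 0 and 3 below. The median was 0.16 on the log2 scale for the members and 0.02 for all genes tested. In sorted bulk samples, fewer cells of a type and less RNA per cell cannot be told apart.

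**Figure D1:**
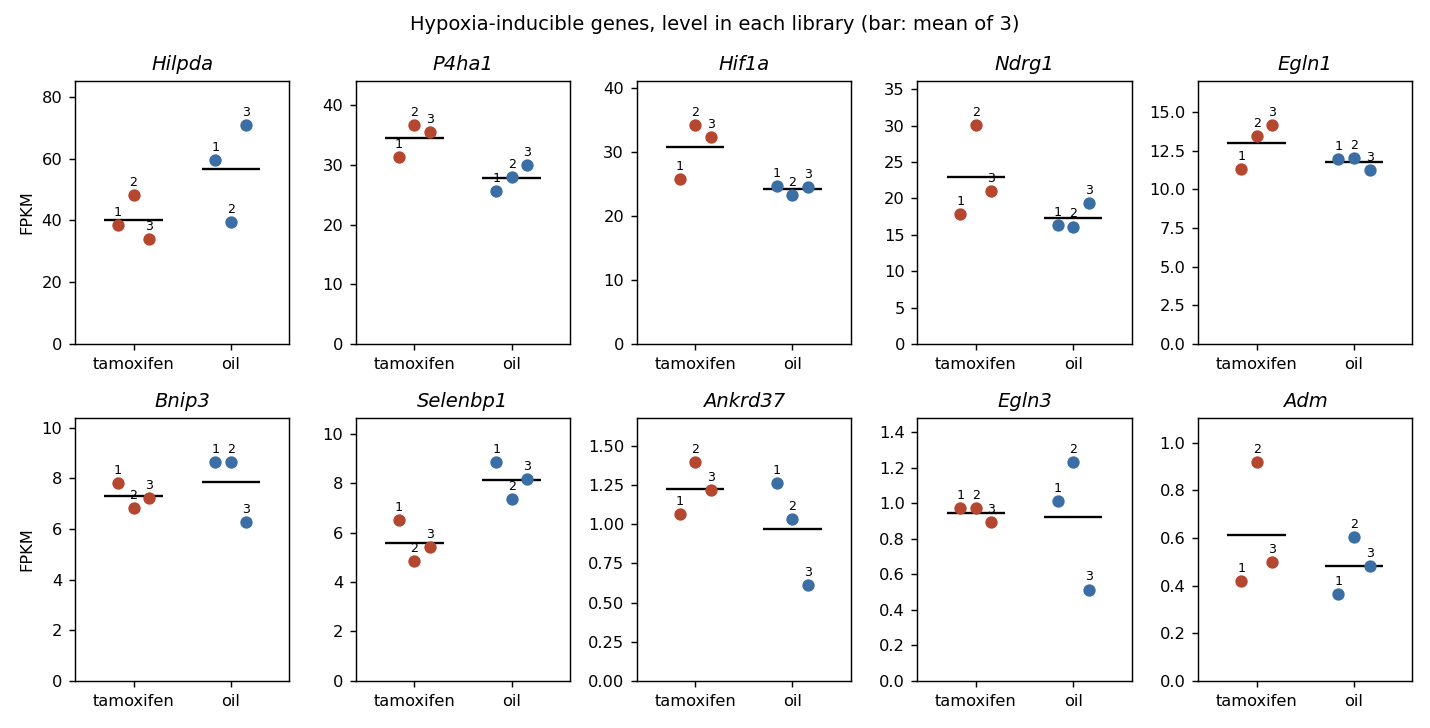
Level in FPKM (y axis, from 0, a scale of its own in each panel) of the 10 hypoxia-inducible genes in the libraries labelled tamoxifen (left, red) and oil (right, blue), with the library number over each point and a bar at the mean of 3. The groups are apart for P4ha1, Hif1a and Selenbp1, and overlap for the other genes.

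The promoters of 9 members were found in the RefSeq table of windows from 250 bases before to 50 bases after each transcription start (build GRCm38.p6). The member without a window there is Ndrg1. They were searched for ACGTG and GCGTG, the core letters of the hypoxia response element that HIF binds, on both strands, with overlapping matches counted as 1 stretch. All 9 held at least 1 such stretch, as did 63.1% of the 9950 windows of tested genes and 43.8% of all 32851 windows. Bnip3 had the most, at 4, and Egln3 had 1. Hilpda has 2 overlapping windows, with 1 and 3 stretches. RefSeq starts can differ from the gene coordinates given below, which come from GENCODE. The windows of Hif1a and Ankrd37 lie wholly inside the coordinates given for those genes. In Hif1a and Bnip3, 1 stretch of each lies within CACGTG, which is also the E-box that other factors recognise. The 250 bases before the start are shown for 5 members, none of which passed the test with all libraries. In P4ha1 and Hif1a every tamoxifen library was above oil, and in Selenbp1 every one was below. In Hilpda and Bnip3 the groups overlapped. The sequences run 5′ to 3′ on the strand of the gene, with matches on either strand in capitals. The windows are chr10:59323046-59323295 (plus strand), chr12:73907617-73907866 (plus strand), chr3:94932833-94933082 (plus strand), chr6:29272376-29272625 (plus strand, the window with more matches) and chr7:138909507-138909756 (minus strand).
P4ha1: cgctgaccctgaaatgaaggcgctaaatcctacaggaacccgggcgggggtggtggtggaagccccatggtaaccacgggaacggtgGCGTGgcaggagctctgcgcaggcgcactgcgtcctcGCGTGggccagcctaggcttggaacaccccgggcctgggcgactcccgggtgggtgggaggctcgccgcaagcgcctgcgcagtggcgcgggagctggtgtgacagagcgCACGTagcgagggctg
Hif1a: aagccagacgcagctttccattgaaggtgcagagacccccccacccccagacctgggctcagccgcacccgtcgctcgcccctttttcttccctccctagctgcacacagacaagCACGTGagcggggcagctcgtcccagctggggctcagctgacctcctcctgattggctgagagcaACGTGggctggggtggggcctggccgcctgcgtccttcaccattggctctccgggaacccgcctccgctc
Selenbp1: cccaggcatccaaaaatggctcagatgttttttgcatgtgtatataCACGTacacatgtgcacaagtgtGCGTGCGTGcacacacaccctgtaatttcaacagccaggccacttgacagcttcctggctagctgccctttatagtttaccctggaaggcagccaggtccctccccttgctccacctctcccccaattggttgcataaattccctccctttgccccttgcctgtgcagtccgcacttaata
Hilpda: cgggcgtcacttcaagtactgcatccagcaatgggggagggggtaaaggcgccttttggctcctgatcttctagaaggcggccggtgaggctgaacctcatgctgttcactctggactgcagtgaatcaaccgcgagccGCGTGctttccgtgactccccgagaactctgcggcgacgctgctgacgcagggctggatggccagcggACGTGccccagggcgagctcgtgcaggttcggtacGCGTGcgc
Bnip3: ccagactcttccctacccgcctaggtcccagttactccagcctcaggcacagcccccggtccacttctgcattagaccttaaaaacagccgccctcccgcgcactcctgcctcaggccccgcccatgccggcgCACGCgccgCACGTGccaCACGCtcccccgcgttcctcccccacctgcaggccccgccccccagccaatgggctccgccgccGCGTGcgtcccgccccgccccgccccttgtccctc
The capitals of Selenbp1 stand farther from the start than those of the other 4. The letters were present in members whose groups were apart in either direction and in members whose groups overlapped. A match describes the sequence only; binding was not measured.

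**Figure D2:**
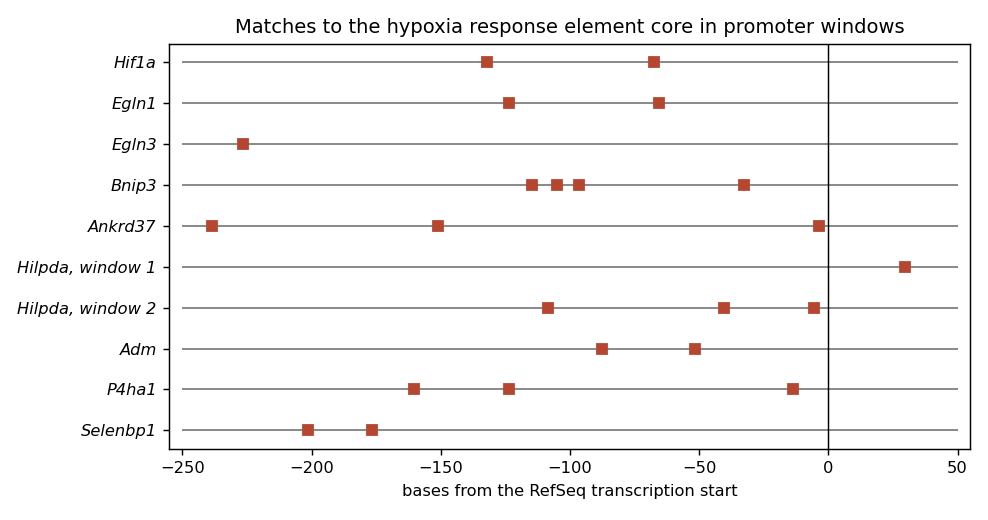
Position of stretches matching the core letters of the hypoxia response element on either strand (squares) in the promoter windows of 9 members, in bases from the RefSeq transcription start (x axis, start at 0). Each line is 1 window; Bnip3 has 4 stretches and Egln3 has 1.

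Hif1a, the oxygen-regulated subunit itself (chromosome 12, 73901375 to 73947530, plus strand, GRCm38), was at 25.8, 34.3 and 32.3 FPKM in tamoxifen 1, 2 and 3, against 24.7, 23.3 and 24.6 FPKM in oil 1, 2 and 3. Every library labelled tamoxifen lay above every oil library, but tamoxifen 1 exceeded the highest oil library by little. The means were 30.8 ± 4.43 FPKM with tamoxifen and 24.2 ± 0.766 FPKM in oil (SD, n = 3 each). The log2 fold change was 0.33 (95% interval 0.06 to 0.59, SE 0.11, limma-trend adjusted p = 0.161), which did not pass; an exact permutation test (two-sided) gave 0.1, the smallest p that 3 against 3 allow. Without tamoxifen 1, Hif1a rose, with a log2 fold change of 0.44 (interval 0.29 to 0.60, limma-trend adjusted p = 0.00584). An antisense gene, Gm15283, shares 330 bases of exon with it and was at 0.328 FPKM or less in every library. A protein-coding gene on the same strand, Gm49321, shares 148 bases and has no value in the files used here, so the level of Hif1a is uncertain to that extent.

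Egln1 and Egln3 encode the prolyl hydroxylases that mark the HIF alpha subunit for destruction, and both are known as HIF targets. Egln1 (chromosome 8, 124908587 to 124949324, minus strand), the main oxygen sensor of the family, was at 11.3, 13.4 and 14.2 FPKM in tamoxifen 1, 2 and 3, against 12.0, 12.0 and 11.3 FPKM in oil. Tamoxifen 2 and 3 were above all oil libraries, and tamoxifen 1 was among them. Its log2 fold change was 0.13 (interval -0.10 to 0.35, limma-trend adjusted p = 0.411), and 0.22 without tamoxifen 1 (adjusted p = 0.0519). Egln3 (chromosome 12, 54178981 to 54203860, minus strand) was below the filter, at 0.972, 0.974 and 0.896 FPKM with tamoxifen, against 1.01, 1.24 and 0.515 FPKM in oil. Those values rested on 57, 47 and 56 fragments with tamoxifen and on 50, 64 and 35 in oil. The oil libraries of Egln3 differed 2.40-fold among themselves and enclosed the tamoxifen libraries. With no filter its log2 fold change was 0.04 (interval -0.36 to 0.44, limma-trend adjusted p = 0.924).

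Bnip3 (chromosome 7, 138890836 to 138909519, minus strand), a receptor on the outer mitochondrial membrane that marks mitochondria for autophagy, was at 7.84, 6.82 and 7.22 FPKM with tamoxifen. In oil it was at 8.64, 8.66 and 6.29 FPKM. The lowest and the highest of the 6 values were both oil libraries. The log2 fold change was -0.09 (interval -0.39 to 0.21, limma-trend adjusted p = 0.682). The antisense gene Gm45507, which shares 504 bases of exon with Bnip3, was listed at 0 in every library.

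Hilpda (chromosome 6, 29272488 to 29275446, plus strand), a lipid droplet protein that inhibits the triglyceride lipase ATGL, was at the highest level of the 10. It stood at 38.6, 48.3 and 33.9 FPKM in tamoxifen 1, 2 and 3, against 59.6, 39.5 and 70.9 FPKM in oil 1, 2 and 3. Oil 1 and 3 were above every tamoxifen library, while oil 2 was below tamoxifen 2. The log2 fold change of -0.46 was among the largest of the members in size, but its interval was wide (-0.996 to 0.081, SE 0.23, limma-trend adjusted p = 0.245). The oil libraries alone differed 1.79-fold, and leaving out oil 3 or oil 2 gave -0.28 and -0.69.

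P4ha1 (chromosome 10, 59323296 to 59373304, plus strand) encodes a catalytic subunit of collagen prolyl hydroxylase, an ER enzyme that stabilises the collagen helix. It was at 31.2, 36.7 and 35.4 FPKM with tamoxifen, against 25.6, 27.9 and 29.97 FPKM in oil. The lowest tamoxifen library, tamoxifen 1, was just above the highest oil library, oil 3. The means were 34.4 ± 2.84 FPKM with tamoxifen and 27.8 ± 2.20 FPKM in oil (SD, n = 3 each). The log2 fold change was 0.30 (interval 0.08 to 0.52, SE 0.09, limma-trend adjusted p = 0.156, exact permutation p = 0.1). Without tamoxifen 1, P4ha1 rose by 0.36 (interval 0.17 to 0.56, limma-trend adjusted p = 0.0194).

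Ndrg1 and Adm are stress-responsive genes of signalling. Ndrg1 (chromosome 15, 66929318 to 66969640, minus strand), a cytoplasmic protein linked to differentiation and vesicle traffic, was at 17.8, 30.1 and 20.999 FPKM in tamoxifen 1, 2 and 3, against 16.3, 16.1 and 19.4 FPKM in oil. Tamoxifen 2 stood well above the other 5 libraries, and tamoxifen 1 lay below oil 3. The log2 fold change was 0.36 (interval -0.08 to 0.80, limma-trend adjusted p = 0.258), 0.16 without tamoxifen 2, and 0.52 without tamoxifen 1 (limma-trend adjusted p = 0.0514). Adm (chromosome 7, 110627661 to 110629820, plus strand), the precursor of the vasodilator peptide adrenomedullin, was the lowest of the 10. It was at 0.421, 0.920 and 0.4998 FPKM with tamoxifen, against 0.366, 0.603 and 0.484 FPKM in oil. Those values rested on 15, 27 and 19 fragments with tamoxifen and on 11, 19 and 20 in oil, a depth that limits what could be detected. With no filter its log2 fold change was 0.11 (interval -0.23 to 0.45, limma-trend adjusted p = 0.715), on a scale that understates low genes.

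Ankrd37 (chromosome 8, 45996902 to 46005707, minus strand), an ankyrin repeat protein, was just over the filter. It was at 1.06, 1.40 and 1.22 FPKM in the tamoxifen libraries, against 1.26, 1.03 and 0.610 FPKM in oil, with overlap. Between 36 and 44 fragments stood behind each value with tamoxifen and between 24 and 36 in oil. Its log2 fold change was 0.19 (interval -0.17 to 0.55, limma-trend adjusted p = 0.442), and 0.05 without oil 3. For Ankrd37, adding 0.1 in place of 1 to FPKM gave 0.35 and limma-voom gave 0.40, and neither fit called it. Its exons share 349 bases with Lrp2bp and 57 bases with Ufsp2 on the opposite strand; no source used here says whether strand entered the counting, so its level is uncertain. Lrp2bp was at 0.174 FPKM or less, and Ufsp2 at 8.54 FPKM or more, in every library.

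Selenbp1 (chromosome 3, 94933056 to 94944758, plus strand), a selenium-binding methanethiol oxidase, was the only member with all tamoxifen libraries below all oil libraries. It stood at 6.49, 4.86 and 5.42 FPKM in tamoxifen 1, 2 and 3, against 8.87, 7.37 and 8.15 FPKM in oil. The means were 5.59 ± 0.831 FPKM with tamoxifen and 8.13 ± 0.7503 FPKM in oil (SD, n = 3 each). The log2 fold change was -0.47 (interval -0.75 to -0.20, SE 0.11, limma-trend adjusted p = 0.147, exact permutation p = 0.1). Without tamoxifen 1 it fell by 0.57 on the log2 scale (limma-trend adjusted p = 0.00838). Selenbp2, a close copy of the gene, was at 0.160, 0.170 and 0.244 FPKM with tamoxifen and at 0.285, 0.385 and 0.483 FPKM in oil; no source used here says how reads shared by the pair were counted, so both levels are uncertain.

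**Figure D3:**
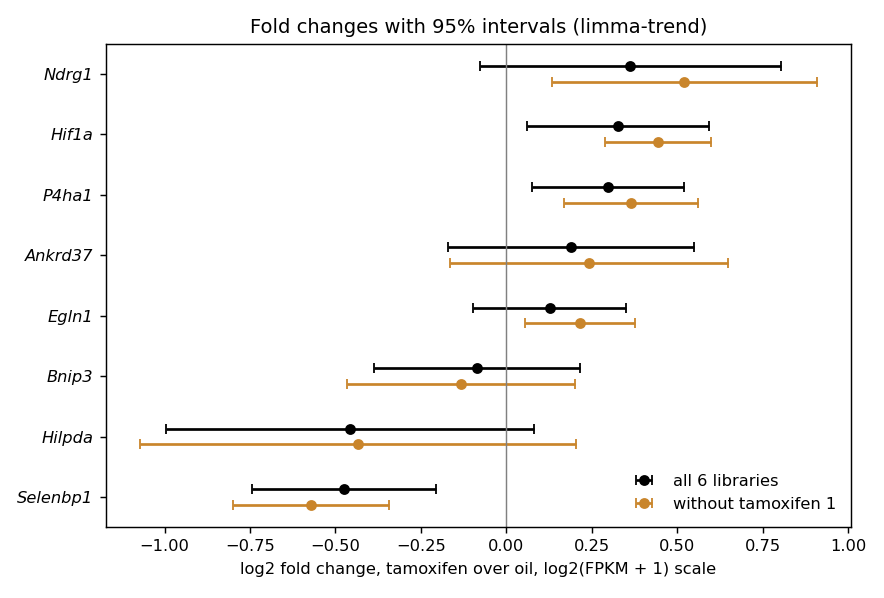
Log2 fold change, tamoxifen over oil, on the log2(FPKM + 1) scale (x axis) for the 8 tested members, with 95% intervals from limma-trend, from all 6 libraries (black) and without tamoxifen 1 (orange). Hif1a, P4ha1 and Selenbp1 lie clear of 0 in both fits before adjustment over all genes, and Bnip3, Ankrd37 and Hilpda span it in both.

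Among themselves the members differed in which library was high. Relative to the oil mean on the log2 scale, tamoxifen 2 held the highest value of Ndrg1, Hif1a, P4ha1, Ankrd37 and Adm, at 0.77, 0.49, 0.39, 0.30 and 0.37, and the lowest value of Selenbp1, at -0.64. Tamoxifen 1 was at most 0.16 above the oil mean (P4ha1), no more than 0.06 below it for 8 members, and lower for Hilpda (-0.50) and Selenbp1 (-0.28). The oil libraries had a pattern of their own. Oil 3 had the lowest level of Bnip3, Ankrd37 and Egln3 in the whole set, at -0.27, -0.28 and -0.32, and at the same time the highest Hilpda, at 0.36. By level, Hilpda, P4ha1, Hif1a, Ndrg1, Egln1, Bnip3, Selenbp1, Ankrd37, Egln3 and Adm followed each other in mean FPKM over the 6 libraries. With tamoxifen the ranges of Hilpda, P4ha1, Hif1a and Ndrg1 overlapped from each gene to the next, while in oil each of these was apart from its neighbour. In oil, Bnip3 overlapped Selenbp1 and Ankrd37 overlapped Egln3, and Egln3 overlapped Adm in both groups. Hilpda stood above 90.6% of tested genes in mean FPKM, Hif1a above 82.8% and Ankrd37 above 2.10%.

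**Figure D4:**
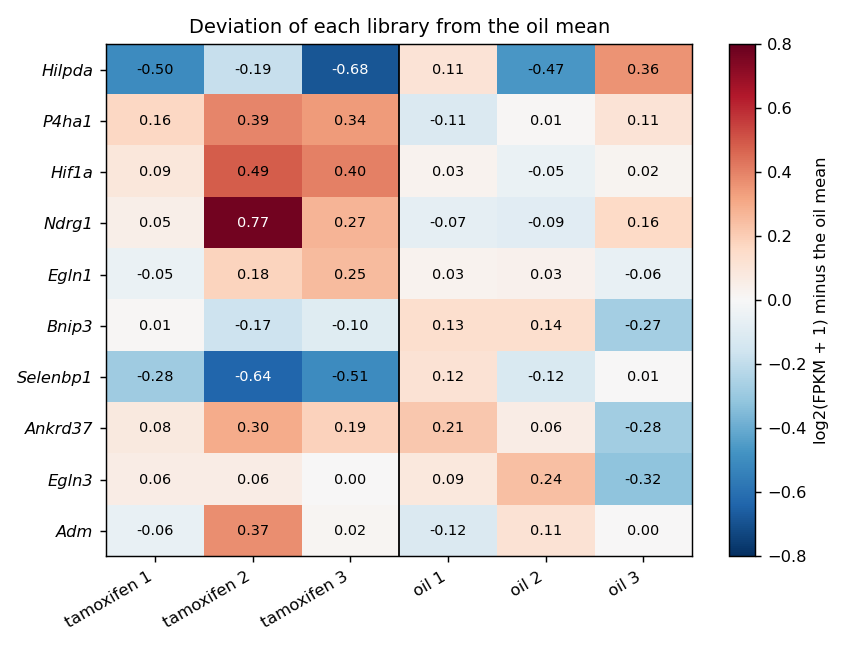
Difference of each library from the oil mean in log2(FPKM + 1) (colour and printed value) for the 10 members (rows, by mean level) in 3 tamoxifen and 3 oil libraries (columns). Tamoxifen 2 and 3 carry the high values of Hif1a, P4ha1 and Ndrg1, and oil 3 the low values of Bnip3, Ankrd37 and Egln3 beside its high Hilpda.

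The genes most like Hif1a and Bnip3 in pattern were sought among those with a mean of at least 5 FPKM. For Hif1a these were Rpf1, Rap2c and Ino80c, with Pearson correlations over the 6 libraries of 0.998 in each case. For Bnip3 they were Esrra, Tm9sf4 and Rnf7, at 0.967, 0.935 and 0.927. None of them is another member. With 6 libraries such values describe these samples only.

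No subunit or regulator of HIF passed the test. Of 14 genes listed 12 were tested, and the median log2 fold change was 0.11, beside 0.02 for all genes tested. In 4 of the 12 all tamoxifen libraries were above all oil libraries and in 1 they were below, beside 16.2% and 13.8% of all genes tested. Eloc, a subunit of the VHL ubiquitin ligase, was at 18.1, 20.9 and 21.8 FPKM with tamoxifen, against 15.96, 17.9 and 17.3 FPKM in oil (log2 fold change 0.23, limma-trend adjusted p = 0.188). Hif1an, the asparagine hydroxylase that blocks HIF's coactivator binding, was at 4.23, 3.67 and 4.09 FPKM with tamoxifen, against 4.51, 4.58 and 4.63 FPKM in oil (-0.16, limma-trend adjusted p = 0.236). Epas1, the alternative alpha subunit, averaged 2.49 ± 0.418 FPKM with tamoxifen and 3.34 ± 0.735 FPKM in oil (SD, n = 3 each), with overlap. Cited2, which competes with HIF for its coactivators, was at 73.4 ± 3.05 FPKM with tamoxifen and 65.6 ± 4.39 FPKM in oil, with no overlap and a log2 fold change of 0.16 (limma-trend adjusted p = 0.241). Hif1a's stable partner Arnt, chosen here after seeing its values, had 6.69 ± 0.168 FPKM with tamoxifen and 6.65 ± 0.0989 FPKM in oil (log2 fold change 0.01, interval -0.14 to 0.16).

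HIF targets of glycolysis and glucose uptake, of which 19 of 20 were tested because Aldoa stood on 2 lines, lay mostly above 0. Of their fold changes 16 were positive and 3 negative, where 53.7% of all genes tested were positive. The 3 negative were Gapdh (log2 fold change -0.71), Pfkfb3 (-0.28) and Pfkfb4 (-0.15). The median of the 19 was 0.21, and 0 passed. In tamoxifen 1, 2 and 3, 18, 14 and 16 of the 19 lay above the oil mean. For oil 1, 2 and 3 the counts were 2, 16 and 7. The median difference from the oil mean was 0.13 in tamoxifen 1 and 0.09 in oil 2. In 9 of the 19 all tamoxifen libraries were above all oil libraries and in 0 below, beside 16.2% and 13.8% of all genes tested. Pkm, pyruvate kinase, was at 341, 487 and 420 FPKM with tamoxifen, against 269, 315 and 283 FPKM in oil (log2 fold change 0.51, limma-trend adjusted p = 0.152). Eno1, enolase, and Pfkp, a phosphofructokinase, had log2 fold changes of 0.50 and 0.41 (limma-trend adjusted p = 0.152 and 0.153). Slc16a3, a lactate exporter, was at 16.7, 41.5 and 31.0 FPKM with tamoxifen, against 10.4, 17.2 and 14.7 FPKM in oil, so that tamoxifen 1 lay among the oil libraries. Its log2 fold change was 0.96 (limma-trend adjusted p = 0.161), and 1.32 without tamoxifen 1. Gapdh was at 22.8 FPKM in oil 3 and at 3.74 FPKM or less in the other libraries. Gapdh is known to have many pseudogenes; the cause of the difference was not tested.

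The remaining HIF targets pointed both ways. Of 34 listed 26 were tested, 14 fold changes were above 0 and 12 below, the median was 0.05 and 0 passed. All tamoxifen libraries were above all oil libraries in 2 and below in 3, beside 16.2% and 13.8% of all genes tested. Ero1l, the ER oxidase that drives disulphide formation, was at 9.88, 16.6 and 14.7 FPKM with tamoxifen, against 8.37, 8.88 and 8.93 FPKM in oil (log2 fold change 0.57, limma-trend adjusted p = 0.154). Mxi1, an antagonist of MYC, was at 20.0, 19.6 and 19.6 FPKM with tamoxifen, against 24.7, 22.9 and 22.1 FPKM in oil (-0.22, limma-trend adjusted p = 0.156). Bnip3l, the close relative of Bnip3 in mitophagy, was at 31.9, 18.5 and 19.8 FPKM with tamoxifen, against 36.3, 29.9 and 32.1 FPKM in oil (-0.50, limma-trend adjusted p = 0.188). Cxcr4, the receptor for the chemokine CXCL12, was at 406, 234 and 287 FPKM with tamoxifen, against 440, 398 and 478 FPKM in oil (-0.54, limma-trend adjusted p = 0.174). For both, tamoxifen 1 lay within the oil range and tamoxifen 2 and 3 below it. Vegfa, the vascular growth factor, also chosen after seeing its values, had 27.6, 27.5 and 21.8 FPKM with tamoxifen and at 21.8, 22.02 and 24.7 FPKM in oil (0.15, interval -0.11 to 0.41).

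**Figure D5:**
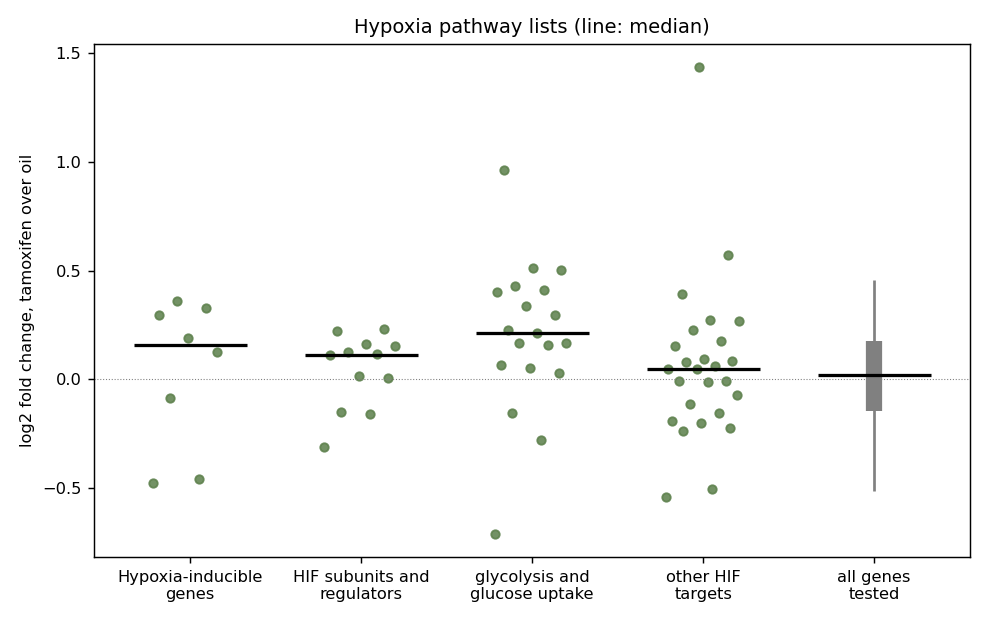
Log2 fold change, tamoxifen over oil (y axis), of each tested gene in the hypoxia-inducible group (8), the HIF subunits and regulators (12), glycolysis and glucose uptake (19) and other HIF targets (26), with a line at each median (0.16, 0.11, 0.21 and 0.05). For all 10920 genes tested the thick bar runs from the 25th to the 75th percentile and the thin bar from the 5th to the 95th.

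Without tamoxifen 1, where 17.4% of all genes were called higher and 14.5% lower, limma-trend called 2 of the 8 members higher (Hif1a and P4ha1) and 1 lower (Selenbp1). On that fit it called 1 regulator higher and 1 lower, 9 glycolysis genes higher and 2 lower, and 6 other HIF targets higher and 4 lower. Leaving out any other single library called none of the members and none of the listed genes.

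Summed markers of neutrophils, of muscle cells and of dendritic cells were apart between the groups, and those of 4 other lists overlapped. Of 14 neutrophil markers 8 were tested; 5 fold changes were above 0 and 3 below, and 3 genes were above oil in every tamoxifen library, where 16.2% of all genes were. The summed level of the list was 56.5, 370 and 114 FPKM in tamoxifen 1, 2 and 3, against 51.5 to 55.4 FPKM in oil. S100a8 and S100a9 were at 154 and 120 FPKM in tamoxifen 2. Ly6g was at 0 in every library but tamoxifen 2, where it was at only 0.176 FPKM, near the floor. Csf3r, the receptor for granulocyte colony-stimulating factor, named here after its values were seen, went the other way, at 30.3, 15.2 and 14.6 FPKM with tamoxifen and 27.3, 28.7 and 28.2 FPKM in oil. The summed muscle and satellite cell markers were at 3.49 to 5.69 FPKM with tamoxifen and 8.28 to 14.8 FPKM in oil, with all 4 tested members (Acta1, Myog, Mylpf and Tnnt3) lower in every tamoxifen library, where 13.8% of all genes were. Dendritic cell markers, led by Itgax and Cd209a, summed to 20.4 to 32.4 FPKM with tamoxifen and 33.35 to 47.7 FPKM in oil. Itgax alone made up most of that sum, at 16.7 to 28.8 FPKM with tamoxifen and 26.8 to 40.4 FPKM in oil, with overlap. All 3 tested fold changes were below 0, and 2 genes were below oil in every tamoxifen library, where 13.8% of all genes were. Erythroid markers (led by Hbb-bs and Hba-a1) summed to 2.22 to 4.66 FPKM with tamoxifen and 1.40 to 4.05 FPKM in oil. Fibroblast markers, led by Col3a1 and Col1a1, summed to 15.9 to 38.1 FPKM with tamoxifen and 23.6 to 25.9 FPKM in oil, and endothelial markers, led by Kdr and Pecam1, to 6.26 to 7.01 FPKM with tamoxifen and 5.53 to 7.19 FPKM in oil. Markers of B, T and NK cells, led by Cd79b and Cd79a, summed to 4.45 to 5.89 FPKM with tamoxifen and 5.47 to 6.17 FPKM in oil, with Ncr1 at 0 throughout. The part of these cells in the levels of the hypoxia-inducible genes was not tested.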

How the data were processed

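Per the labels, the RNeasy Micro Kit was used to extract RNA of the sorted cells. The authors deposited 1 table of FPKM per gene and library. Per the submitters' processing notes, they used the build GRCm38.p6. Aligner, counter, annotation and handling of strand: not given in the sources used here. Of 54183 lines, 382 without a name and 27 with a date in place of a name were left out, and 124 names on more than 1 line were left out of the lists.

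FPKM multiplied by the exon length in GENCODE M21 (same build) gave whole multiples of 1 step in each library, within 0.02 fragments for 95.0% or more of values up to 1000, so fragments could be recovered; all 10 members were whole in every library. They serve to show depth, and limma-voom on them was an alternative added after seeing the data. Gene coordinates come from GENCODE, promoters from RefSeq.

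Libraries labelled tamoxifen were compared with oil by limma-trend (R 4.3.3, limma 3.58.1) on log2(FPKM + 1), two-sided, for genes whose mean reached 1 FPKM, with Benjamini-Hochberg adjustment over all of them and a threshold of 0.05. No covariate was used. Intervals cover 95% and are not adjusted. Exact permutation tests were run on single members. Tables were handled in Python 3.11 with pandas 2.3.3 and NumPy 2.4.6.

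All members are named, with the 4 smallest p of each pathway list, the 2 most abundant markers of each other cell type, and the 3 genes most like Hif1a and Bnip3. Further named genes lie outside these rules. Some, such as Arnt, Vegfa and Csf3r, are marked where they are named. Gapdh, Pfkfb3, Pfkfb4, Ly6g, Mylpf, Tnnt3, Lyz2 and Fcgr1 are not. The members and lists were chosen with earlier results of these data known. Alternatives were other pseudocounts, filters and scalings, limma with a robust prior or no trend, a block for the replicate number, and fits that each left out 1 library.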

Additional observations from a re-analysis of the deposited data

How the results depend on the processing

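The tested members kept their direction under each of the 17 alternatives that gave them a value; Ankrd37 has none with the filter at 5 FPKM. Of 135 values of members under an alternative, 132 stayed on the same side of the threshold. The other 3 were Hif1a, P4ha1 and Selenbp1, called only without tamoxifen 1. Few values could change side, because most alternatives called 0 of all genes tested. The 132 therefore say little about stability. Of 200 values of the pathway genes named for the 4 smallest p of each list, 191 stayed, with the same limit. The other 9 passed, also only without tamoxifen 1, where 17.4% of all genes were called higher and 14.5% lower. These genes were picked by p in the same libraries, so their passing is no separate support. When each library was left out in turn, the genes called ran from 0 to 1901 higher and from 0 to 1583 lower, the members called from 0 to 2 higher and 0 to 1 lower, and the pathway genes from 0 to 16 higher and 0 to 7 lower. With the filter at 5 FPKM, 1 gene was higher and 4 lower, and with no filter 1 was lower; none of these was a member or a listed gene. The cause was not tested.

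The replicate number as a block gave 11 genes higher and 22 lower, again with no member among them. Same-numbered libraries correlated in their deviations from the group means at 0.26, 0.09 and 0.00, and not every library correlated best with its own number. Within a group these deviations are tied to each other by the mean. The values therefore cannot settle whether the numbers pair the samples. The comparison was made without pairing. The low levels of Adm, Egln3 and Ankrd37, on 11 to 64 fragments, limit what can be seen of them.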
